A study of Mus musculus with 6 samples.

Results

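The genes of the histone-modifying enzymes were followed over a neuronal differentiation of the blastocyst-derived mouse stem cell line E14TG2a. Members were all genes whose symbol in the deposited tables is a numbered Hdac, Sirt, Kdm, Kmt, Setd, Kat or Prmt name, or is Setdb1, Setdb2, Suv39h1, Suv39h2, Ehmt1 or Ehmt2. This name rule took 70 of 46517 gene IDs, and it uses no measured value. RNA was measured in 6 libraries from the same wild-type line, 2 for each of 3 stages, namely undifferentiated stem cells (mESC), neuronal progenitors (NPC) and a final stage labelled NC. The stem cells grew without feeder cells on gelatin with serum and the cytokine LIF, and neurons were made from them by a published protocol. NC is not spelled out in the labels and is taken here as the glutamatergic pyramidal neurons of the study's design text. No sorting step is described, so each library is taken as a bulk culture, and the labels give embryonic stem cell as the cell type of all 6 libraries.

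Histone acetyltransferases add acetyl groups to lysines of the histone tails, and histone deacetylases remove them, the classical HDACs with zinc and the sirtuins with NAD. Lysine methyltransferases and demethylases write and remove methyl groups whose effect depends on the position. Methylation of histone H3 at lysine 4 (H3K4) marks promoters and enhancers in use, while methylation at lysine 9 or 27 (H3K9, H3K27) marks silent chromatin. Protein arginine methyltransferases (PRMTs) methylate histones and many RNA-binding proteins. Several of these families hold closely related genes that can serve in the same complex, such as HDAC1 and HDAC2 in the NuRD, SIN3 and CoREST corepressors. Some members carry a family name but have other main substrates.

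The libraries followed their labels in part. The 4 pluripotency markers summed to between 3041 and 3614 TPM in mESC, between 3.89 and 5.01 in NPC and between 9.35 and 13.0 in NC (TPM is a transcript abundance scaled to gene length and to the same sum in each library). The 6 neuron markers summed to 89.3 to 122 TPM in mESC, 456 to 744 in NPC and 2649 to 2949 in NC, and all 6 were higher in NC than in NPC. Markers of dividing cells summed to 2288 to 2581 TPM in mESC, 1553 to 1693 TPM in NPC and 551 to 609 TPM in NC. Of these, 7 of 7 were lower in NC than in NPC. Fibroblast or smooth muscle markers, at 80.5 to 124 TPM in mESC and 36.3 to 71.0 in NPC, summed to 945 to 1081 in NC, where 6 of 6 were higher than in NPC. Astrocyte markers summed to 70.02 TPM in NC replicate 1 and to 2.83 in NC replicate 2. Neural progenitor markers summed to 26.9 and 43.8 TPM in mESC, 774 and 667 TPM in NPC, and 1099 TPM and 341 TPM in NC. Endoderm markers summed to 33.0 and 7.09 TPM in mESC, 109.8 and 72.7 TPM in NPC and 14.7 and 22.5 TPM in NC, with 2 of 4 (Sox17 and Foxa2) higher in NPC than in mESC. Oligodendrocyte markers summed to 5.696 to 6.81 TPM in mESC, 24.1 to 26.7 TPM in NPC and 34.7 to 35.4 TPM in NC, with 2 of 4 (Mbp and Sox10) higher in NC than in mESC. The 3 microglia markers summed to at most 0.353 TPM in mESC and NPC and to 1.21 and 3.23 TPM in NC, where the 1 tested, Csf1r, was higher than in NPC and in mESC, and Cx3cr1 lay near 0 in all 6 libraries. Depth, taken from the most common ratio of coverage to FPKM, was 1.57 to 2.27 Gb of aligned bases. Per library, 38.3% to 39.7% of the genes with an FPKM of at least 1 had that ratio, and the rest differed from it. In bulk cultures fewer cells of a type and less RNA per cell cannot be told apart, and the part of these other cells, or of cell division, in the results below was not tested.

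Of the 70 enzyme genes, 68 had at least 1 TPM in at least 2 libraries and were tested; Kdm4d lay between 0 and 0.626 TPM and the Y-linked Kdm5d between 0.0407 and 0.253 TPM. The enzymes were well expressed: their median level was 56.9 TPM (mean over the 6 libraries), against 15.2 for all tested genes, and 57 had at least 10 TPM in every library. Another gene of at least 1 TPM overlapped 19 of the enzyme genes on the opposite strand, and 6 on the same strand. No label or header names the strand setting, so reads from overlaps on opposite strands could be assigned to either gene, and those on the same strand cannot be told apart by strand. The overlapping gene was the more abundant one for Kdm1b, Setdb1 and Sirt3 on the opposite strand and for Sirt7 on the same strand. For 12 enzyme genes another gene held a stretch of at least 300 bases that was at least 95% identical, so their reads could also be split. For Kat5, Kdm2b, Kmt2e, Sirt3 and Suv39h1 such a stretch lay in a gene already counted as an overlap on the opposite strand. Over the tested enzymes, replicate libraries differed with an SD of the log2 ratio of 0.271 (mESC), 0.172 (NPC) and 0.302 (NC).

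In NPC against mESC, 24 enzymes (35.3%) were higher and 10 (14.7%) lower (limma on log2(TPM + 1), Benjamini-Hochberg adjusted p under 0.05), where 40% of all tested genes were called, 26% higher and 14% lower. In NC against NPC, 11 (16.2%) were higher and 4 (5.88%) lower, where 25.3% of all genes were called, 15.2% higher and 10.1% lower. In NC against mESC, 32 (47.1%) were higher and 14 (20.6%) lower, where 59.9% of all genes were called, 37.8% higher and 22.1% lower. The median log2 fold change was 0.17 for the enzymes and 0.18 for all tested genes in NPC against mESC. It was 0.14 and 0.11 in NC against NPC, and 0.31 for both in NC against mESC. In total 49 enzymes were called in at least 1 comparison and 19 in none. The 3 comparisons share libraries pairwise, so they are not independent of each other.

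The excess of higher over lower calls depended on the scaling. After median-of-ratios scaling the enzymes split into 19 higher and 15 lower in NPC against mESC, 9 and 5 in NC against NPC, and 25 and 20 in NC against mESC. All genes then split into 4285 higher and 3897 lower, 2619 and 2205, and 6200 and 5757 in the same order. With quantile normalization the enzymes split into 19 and 11 in NPC against mESC, 9 and 7 in NC against NPC, and 26 and 18 in NC against mESC, where all genes split into 3963 and 3771, 2540 and 2790, and 5565 and 6234. With FPKM the splits were 23 and 13 in NPC against mESC, 7 and 7 in NC against NPC, and 25 and 20 in NC against mESC, and those of all genes were 4470 and 3123, 2239 and 2686, and 5597 and 5239. The median log2 fold change of all genes in NC against mESC was 0.31 in TPM, 0.03 after median-of-ratios scaling, -0.05 with quantile normalization and 0.03 in FPKM. On the same 4 scales it was 0.18, -0.02, -0.03 and 0.07 in NPC against mESC, and 0.11, 0.04, -0.02 and -0.04 in NC against NPC. The directions and the shares of all genes higher or lower given here are thus relative to the TPM scale. No called enzyme changed its sign under any of the scalings, filters and fits run, or without any 1 library. In NC against NPC fewer enzymes were called when any 1 library was left out, and fewest without an NPC library. The same held for the calls of all tested genes, so this loss was not particular to the enzymes. In NPC against mESC, 14 enzymes were higher and 6 lower without NPC replicate 1, and 12 were higher and 8 lower without NPC replicate 2.

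**Figure D1:**
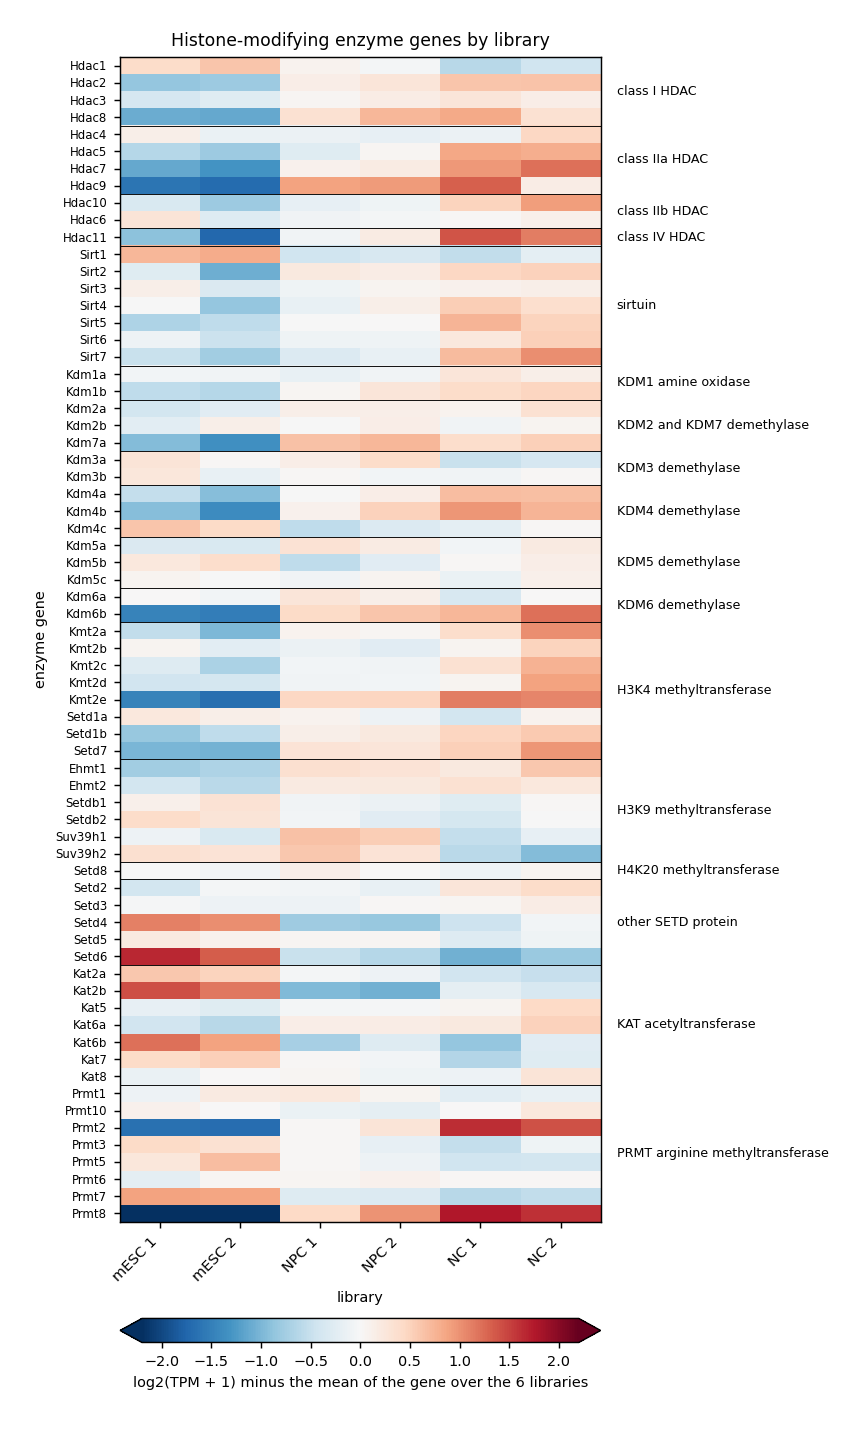
Each row is 1 of the 68 tested enzyme genes and each column 1 library. The colour gives log2(TPM + 1) minus the mean of the gene over the 6 libraries, with families separated by lines. Prmt8 and Prmt2 are lowest in both mESC libraries and highest in both NC libraries, while Setd6, Kat2b and Setd4 are highest in both mESC libraries.

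Among enzymes with a promoter window, Prmt8 and Prmt2 rose most in log2(TPM + 1) between mESC and NC, and Setd6 and Kat2b fell most. Their promoter windows are shown because they bound the range of responses. Each runs from 250 bases before to 50 bases after the RefSeq start (RefSeq, GRCm38.p6), given 5′ to 3′ on the strand of the gene. Capitals mark matches to the motif bound by the transcription factor NRF1, searched on both strands as the letters GCGCA, any 1 base and GCGC in a row.
Prmt8 (chr6:127769110-127769409, minus strand): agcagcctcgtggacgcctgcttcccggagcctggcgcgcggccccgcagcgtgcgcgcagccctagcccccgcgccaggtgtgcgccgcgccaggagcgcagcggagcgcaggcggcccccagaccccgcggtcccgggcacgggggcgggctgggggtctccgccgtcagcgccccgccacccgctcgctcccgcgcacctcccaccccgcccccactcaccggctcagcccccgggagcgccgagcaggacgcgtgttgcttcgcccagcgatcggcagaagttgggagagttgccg
Prmt2 (chr10:76237816-76238115, minus strand): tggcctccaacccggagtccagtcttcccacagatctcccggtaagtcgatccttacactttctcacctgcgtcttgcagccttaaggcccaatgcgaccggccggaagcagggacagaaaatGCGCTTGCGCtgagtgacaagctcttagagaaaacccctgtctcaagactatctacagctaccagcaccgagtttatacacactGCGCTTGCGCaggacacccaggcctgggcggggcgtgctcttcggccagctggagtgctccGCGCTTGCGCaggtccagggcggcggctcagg
Setd6 (chr8:95715663-95715962, plus strand): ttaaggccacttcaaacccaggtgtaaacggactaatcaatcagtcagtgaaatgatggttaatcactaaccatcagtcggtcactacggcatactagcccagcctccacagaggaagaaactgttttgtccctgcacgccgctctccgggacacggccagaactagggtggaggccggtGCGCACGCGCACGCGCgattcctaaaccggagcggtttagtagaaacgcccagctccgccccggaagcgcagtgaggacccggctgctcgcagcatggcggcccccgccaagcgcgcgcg
Kat2b (chr17:53566721-53567020, plus strand): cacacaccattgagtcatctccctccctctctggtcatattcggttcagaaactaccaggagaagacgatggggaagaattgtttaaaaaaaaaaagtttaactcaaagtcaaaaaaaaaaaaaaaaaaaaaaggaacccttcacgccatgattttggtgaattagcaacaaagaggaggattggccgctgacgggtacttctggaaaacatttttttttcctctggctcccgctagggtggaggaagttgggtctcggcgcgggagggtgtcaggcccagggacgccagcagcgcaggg
The window of Prmt2 held 3 matches and that of Setd6 2 matches that overlap each other, while those of Prmt8 and Kat2b held 0. The windows of Prmt8 and Kat2b also differ in base composition, with 43 CpG pairs in the first and 11 in the second. The RefSeq start used for Prmt8 lies 313 bases from the deposited start of the gene. Its whole window lies inside the deposited gene, so it holds no base upstream of that start. Over the 50 tested members whose window starts within 1000 bases of the start in the tables, 8 (16%) held the motif, against 10.1% of the windows of 10499 tested genes matched in the same way. The median number of CpG pairs was 21 both in the enzyme windows and over those genes. The GGGCGG box of SP factors was in 60% of the enzyme windows and 65.3% of all, CCGGAAG, a core of ETS factor sites, in 24% and 17.3%, and TATAAA in 4% and 6.91% (both strands, matches counted whether or not they overlap). A match is a run of letters and says nothing of binding.

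The class I deacetylase genes Hdac1 and Hdac2 moved in opposite directions. Hdac1 (ENSMUSG00000028800.14, chr4:129516104-129542713), a catalytic subunit of NuRD, SIN3 and CoREST, had 198 and 229 TPM in mESC, 157 and 146 TPM in NPC and 97.5 and 110.2 TPM in NC. Hdac2 (ENSMUSG00000019777.15, chr10:36974544-37001889), its close relative in the same complexes, had 88.9 and 93.05 TPM in mESC, 179 and 195 TPM in NPC and 248 and 252 TPM in NC. Each stage was apart from the other two for both genes, with Hdac1 highest in mESC and Hdac2 highest in NC. Hdac1 fell in both steps and was lower in NC than in mESC (log2 fold change of -1.03, SE 0.14, adjusted p = 0.00115), while Hdac2 rose in both steps and was higher in NC (log2 fold change of 1.45, SE 0.12, adjusted p = 0.000157). Hdac2 thereby made up 31.04% and 28.9% of the summed TPM of the pair in the mESC libraries, 53.3% and 57.3% in the NPC libraries and 71.8% and 69.6% in the NC libraries. A processed copy of Hdac1, Gm10093, is 99.4% identical over 1444 bases and was itself listed at 27.9 to 75 TPM, so reads can be split between both. With the copy added to Hdac1, an alternative chosen after seeing the data, the log2 fold change in NC against mESC was -1.09 and still called. Fits that left out 1 library ended calls in NPC against mESC, those of Hdac1 without mESC replicate 2 or NPC replicate 1 or 2 (adjusted p 0.106 to 0.208). Calls in NC against NPC were lost when 1 library was left out, for Hdac1 and Hdac2 without NPC replicate 1 or 2 or NC replicate 1 or 2 (adjusted p 0.0619 to 0.3003). Another scaling, filter, unit or fit ended the calls of Hdac1 in NPC against mESC (adjusted p 0.0568 to 0.0813) and Hdac1 and Hdac2 in NC against NPC (adjusted p 0.0502 to 0.1999).

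Hdac3, the deacetylase of the NCoR and SMRT corepressors, had 75.9 and 81.6 TPM in mESC, 100.5 and 109.9 TPM in NPC and 119 and 109 TPM in NC. The NPC libraries lay above those of mESC (log2 fold change of 0.41, SE 0.13, adjusted p = 0.0472), and the NC and NPC libraries overlapped. Hdac8, a class I enzyme known as the deacetylase of the cohesin subunit SMC3, was low in the stem cells, with 4.30 and 4.15 TPM in mESC, 13.3 and 17.7 TPM in NPC and 19.1 and 13.2 TPM in NC. The NPC and NC values overlapped, and both stages lay above mESC (NPC against mESC, log2 fold change of 1.64, SE 0.26, adjusted p = 0.0036). In NPC against mESC the call did not hold for Hdac3 without mESC replicate 1 or 2 or NPC replicate 1 or 2 (adjusted p 0.0650 to 0.271). Under at least 1 other scaling, filter, unit or fit the test was not passed by Hdac3 in NPC against mESC (adjusted p 0.0533 to 0.368) and Hdac3 in NC against mESC (adjusted p 0.175 to 0.264).

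Class IIa members bind MEF2 transcription factors and shuttle between nucleus and cytoplasm. Here 3 of 4 genes were higher in NC than in mESC, beside 37.8% of all tested genes. Hdac5 was the most abundant, with 51.2 and 45.6 TPM in mESC, 66.6 and 82.6 TPM in NPC and 144 and 139 TPM in NC, and rose in both steps (NC against mESC, log2 fold change of 1.53, SE 0.16, adjusted p = 0.000332). Hdac7 had 12.4 and 10.6 TPM in mESC, 30.2 and 31.8 TPM in NPC and 55.6 and 66.1 TPM in NC. This was again a rise in both steps (log2 fold change of 2.30, SE 0.17, adjusted p = 0.000102 in NC against mESC). Hdac9 was below 1 TPM in mESC at 0.577 and 0.488 TPM, and had 7.86 and 8.17 TPM in NPC and 10.99 and 4.37 TPM in NC. It was higher in NPC than in mESC (log2 fold change of 2.56, SE 0.40, adjusted p = 0.00315), and its 2 NC libraries lay on either side of both NPC libraries. The NC replicate with more Hdac9 also had more of the astrocyte markers (70.02 against 2.83 TPM) and of the neural progenitor markers (1099 against 341 TPM). With 2 libraries these differences cannot be told apart, and a link to Hdac9 was not tested. Hdac4 had 22.8 and 18.7 TPM in mESC, 18.9 and 18.04 TPM in NPC and 18.8 and 28.7 TPM in NC. Its stages overlapped. With 1 library fewer, NPC against mESC lost the calls of Hdac5 without mESC replicate 2 or NPC replicate 2 (adjusted p 0.0952 to 0.177). The test in NC against NPC was no longer passed by Hdac5 and Hdac7 without NPC replicate 1 (adjusted p 0.0969 to 0.112) and Hdac7 without NPC replicate 2 or NC replicate 2 (adjusted p 0.0515 to 0.0850). At least 1 other scaling, filter, unit or fit did not call Hdac5 in NPC against mESC (adjusted p 0.0505 to 0.0837).

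Hdac11, the only class IV enzyme, known also to remove long acyl chains, had 15.3 and 8.16 TPM in mESC, 27.9 and 33.6 TPM in NPC and 78.5 and 65.4 TPM in NC. No 2 stages overlapped, and it rose in both steps, with a log2 fold change of 2.57 in NC against mESC (SE 0.29, limma adjusted p = 0.000496). Hdac10, known as a polyamine deacetylase, had 12.1 and 8.44 TPM in mESC, 13.5 and 14.5 TPM in NPC and 22.2 and 29.95 TPM in NC. The second step passed the test (log2 fold change of 0.84, SE 0.25, adjusted p = 0.0495). Hdac6, the tubulin deacetylase, had 99.5 and 66.5 TPM in mESC, 76.98 and 78.9 TPM in NPC and 82.9 and 87.6 TPM in NC. It was called in no comparison. Fits that left out 1 library ended calls in NPC against mESC, those of Hdac11 without NPC replicate 2 (adjusted p = 0.0871). Calls in NC against NPC were lost when 1 library was left out, for Hdac10 without mESC replicate 1 or 2 (adjusted p 0.0607 to 0.0619) and Hdac10 and Hdac11 without NPC replicate 1 or 2 or NC replicate 1 or 2 (adjusted p 0.0643 to 0.240). Another scaling, filter, unit or fit ended the calls of Hdac10 and Hdac11 in NC against NPC (adjusted p 0.0516 to 0.106).

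**Figure D2:**
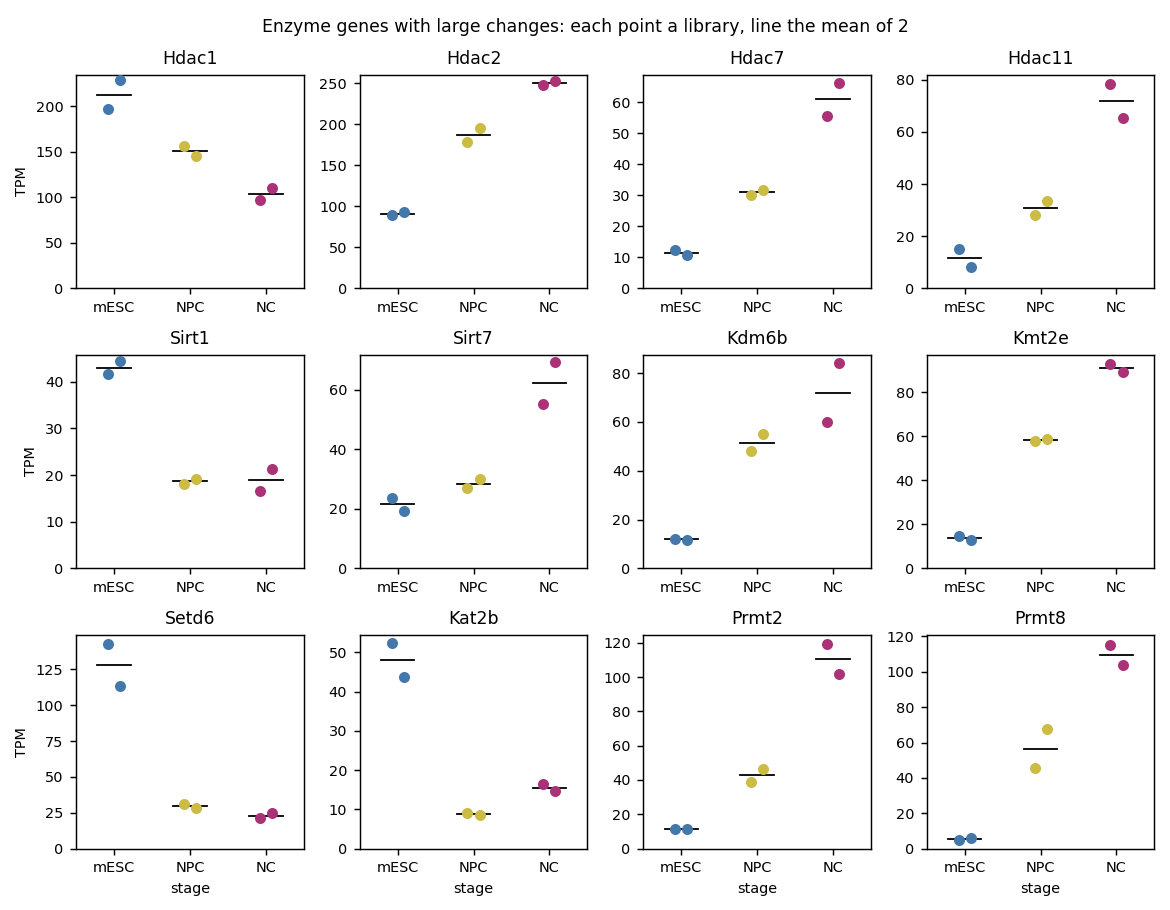
TPM of 12 enzyme genes (linear axis from 0) by stage, with 1 point per library and a line at the mean of the 2 libraries. Hdac1, Sirt1, Setd6 and Kat2b are highest in mESC, and the other 8 are lowest there. Hdac2, Hdac7, Hdac11, Kmt2e, Prmt2 and Prmt8 rise in both steps, and the 2 libraries of a stage lie closer to each other than to the other stages in these.

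Of the 7 sirtuins, the NAD-dependent deacylases, 5 were higher and 1 lower in NC than in mESC, beside 37.8% and 22.1% of all genes. The one that fell was Sirt1, the nuclear deacetylase of histones and p53, with 41.6 and 44.4 TPM in mESC, 18.1 and 19.2 TPM in NPC and 16.6 and 21.3 TPM in NC. Both later stages lay below mESC and overlapped each other (NPC against mESC, log2 fold change of -1.16, SE 0.18, adjusted p = 0.00328; NC against mESC, log2 fold change of -1.15, SE 0.18, adjusted p = 0.00206). Sirt7, a nucleolar sirtuin that acts on H3 lysine 18, had 23.6 and 19.3 TPM in mESC, 26.9 and 29.9 TPM in NPC and 55.1 and 69.2 TPM in NC. It was the single sirtuin called between NC and NPC (log2 fold change of 1.10, SE 0.19, adjusted p = 0.0101). Sirt2, which deacetylates tubulin, had 45 and 25.6 TPM in mESC, 63.7 and 61.4 TPM in NPC and 75.6 and 77.7 TPM in NC. This was a rise from the stem cells on (log2 fold change of 1.15, SE 0.25, adjusted p = 0.00803 in NC against mESC). The mitochondrial Sirt5, which removes succinyl groups, had 5.42 and 5.98 TPM in mESC, 9.23 and 9.35 TPM in NPC and 16.2 and 13.5 TPM in NC, and the difference between NC and mESC passed the test (log2 fold change of 1.24, SE 0.21, adjusted p = 0.0029) while neither step alone did. Sirt5 shares near-identical stretches with Wdr31 (843 bases, 7.09 to 23.8 TPM) and Snhg14 (467 bases, 30.1 to 87.5 TPM). Its reads could be split with these, so its values are uncertain. Sirt6, an H3K9 deacetylase, had 57.3 and 69.9 TPM in NC and 44.8 and 34.4 TPM in mESC (log2 fold change of 0.67, SE 0.18, adjusted p = 0.0181). Mitochondrial Sirt4 had 38.3 and 33.9 TPM in NC and 25.8 and 13.97 TPM in mESC (log2 fold change of 0.89, SE 0.29, adjusted p = 0.0365). The mitochondrial Sirt3, which lay between 21.1 and 29.05 TPM in all libraries, was not called. Sirt3 overlaps the proteasome gene Psmd13 by 342 bases on the opposite strand, and Psmd13 had 6.39 times its TPM, so its value is uncertain without a stated strand setting. In NPC against mESC the call did not hold for Sirt2 without NPC replicate 1 or 2 or NC replicate 1 or 2 (adjusted p 0.0744 to 0.158). With 1 library fewer, NC against NPC lost the calls of Sirt7 without NPC replicate 1 or 2 (adjusted p 0.0682 to 0.0995). The test in NC against mESC was no longer passed by Sirt4 and Sirt6 without mESC replicate 2 (adjusted p 0.0765 to 0.126), Sirt4 without NPC replicate 1 or 2 or NC replicate 1 (adjusted p 0.0668 to 0.155) and Sirt2, Sirt4 and Sirt6 without NC replicate 2 (adjusted p 0.0543 to 0.106). Under at least 1 other scaling, filter, unit or fit the test was not passed by Sirt2 in NPC against mESC (adjusted p 0.0579 to 0.111) and Sirt4 and Sirt6 in NC against mESC (adjusted p 0.0505 to 0.173). Sirt4 was called higher in NPC against mESC without mESC replicate 1 (adjusted p = 0.0491). Sirt5 was called higher in NPC against mESC with a mean TPM of at least 5 and eBayes run with no trend (adjusted p 0.0388 to 0.0490).

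The KAT acetyltransferases included some of the largest falls, with 4 of 7 lower and 2 higher in NC than in mESC. Over all tested genes 22.1% were lower and 37.8% higher in that comparison. Kat2b (ENSMUSG00000000708.13, chr17:53566861-53672720), the PCAF acetyltransferase of the SAGA and ATAC complexes, had 52.3 and 43.6 TPM in mESC, 9.12 and 8.58 TPM in NPC and 16.4 and 14.7 TPM in NC. It fell in the first step (log2 fold change of -2.31, SE 0.18, adjusted p = 0.000249) and rose in the second (log2 fold change of 0.75, SE 0.18, adjusted p = 0.0299), so that NC lay between NPC and mESC with no overlap. Its relative Kat2a, or GCN5, was the more abundant of the pair, with 195 and 180.5 TPM in mESC, 125 and 118 TPM in NPC and 95.2 and 89.9 TPM in NC, and was lower in NC than in mESC (log2 fold change of -1.01, SE 0.13, adjusted p = 0.000733). The share of Kat2b in the summed TPM of the pair was 21.1% and 19.5% in the mESC libraries, 6.80% and 6.75% in those of NPC and 14.7% and 14.04% in those of NC. Fits that left out 1 library ended calls in NPC against mESC, those of Kat2a without NPC replicate 1 or 2 (adjusted p 0.0632 to 0.0929). Calls in NC against NPC were lost when 1 library was left out, for Kat2b without NPC replicate 1 or 2 or NC replicate 1 or 2 (adjusted p 0.0623 to 0.166). At least 1 other scaling, filter, unit or fit did not call Kat2b in NC against NPC (adjusted p 0.0548 to 0.0617). Kat2a was called lower in NC against NPC with FPKM, median-of-ratios scaling and quantile normalization (adjusted p 0.0204 to 0.0482).

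The MOZ and MORF genes exchanged places. Kat6b, or MORF, had 149.7 and 119 TPM in mESC, 38.4 and 52.6 TPM in NPC and 35.3 and 53.9 TPM in NC. This was a fall in the first step (log2 fold change of -1.55, SE 0.26, adjusted p = 0.00422), and its NC and NPC libraries overlapped. Kat6a, or MOZ, had 41.7 and 36.7 TPM in mESC, 62.3 and 62.95 TPM in NPC and 65.1 and 80.6 TPM in NC. Both later stages lay above mESC, and the first step was called (log2 fold change of 0.67, SE 0.16, adjusted p = 0.0173). Kat6a therefore made up 21.8% and 23.6% of the pair in the mESC libraries, 61.9% and 54.5% in those of NPC and 64.9% and 59.9% in those of NC. Kat7, the HBO1 enzyme that acetylates H3 lysine 14, had 57.8 and 75.7 TPM in NC and 122 and 131 TPM in mESC (log2 fold change of -0.92, SE 0.16, adjusted p = 0.00331). Kat5, the TIP60 enzyme, had 66.9 and 87.3 TPM in NC and 56.4 and 53.3 TPM in mESC (log2 fold change of 0.47, SE 0.16, adjusted p = 0.0449), and it overlaps Rnaseh2c on the opposite strand. Kat8, the MOF enzyme of H4 lysine 16, lay between 47.1 and 63.8 TPM in the 6 libraries and was not called. In NPC against mESC the call did not hold for Kat6b without mESC replicate 1 (adjusted p = 0.0526) and Kat6a without mESC replicate 2 or NPC replicate 1 or 2 (adjusted p 0.0788 to 0.116). With 1 library fewer, NC against mESC lost the calls of Kat5 without mESC replicate 1 or 2 or NPC replicate 1 or 2 or NC replicate 2 (adjusted p 0.0966 to 0.144). Another scaling, filter, unit or fit ended the calls of Kat5 in NC against mESC (adjusted p 0.0699 to 0.398). Kat7 was called lower in NPC against mESC with a mean TPM of at least 5, FPKM, median-of-ratios scaling and a fit of only those 2 groups, and without NC replicate 1 and without NC replicate 2 (adjusted p 0.0145 to 0.0488). Kat7 was called lower in NC against NPC with FPKM and quantile normalization, and without NC replicate 2 (adjusted p 0.0335 to 0.0464).

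Among the demethylases, 6 were higher and 2 lower in NC than in mESC. Those tested were 2 of KDM1, 3 of KDM2 and KDM7, 2 of KDM3, 3 of KDM4, 3 of KDM5 and 2 of KDM6. Over all tested genes 37.8% were higher and 22.1% lower in that comparison. Kdm6b (ENSMUSG00000018476.7, chr11:69398508-69413675), or JMJD3, which removes H3K27 methylation, had 12.2 and 11.8 TPM in mESC, 47.9 and 54.9 TPM in NPC and 59.9 and 83.9 TPM in NC. It was higher in NPC than in mESC (log2 fold change of 2.01, SE 0.20, limma adjusted p = 0.000566) and in NC than in mESC (log2 fold change of 2.47, SE 0.20, limma adjusted p = 0.000134). The stages did not overlap, but Kdm6b was not called in NC against NPC (log2 fold change of 0.46, SE 0.20, limma adjusted p = 0.140). Its X-linked relative Kdm6a, or UTX, had 31.9 and 30.3 TPM in mESC, 38.3 and 34.6 TPM in NPC and 24.5 and 31.8 TPM in NC. It was called in no comparison on the TPM scale. Kdm6b was thus the minor gene of the pair in mESC, with 27.7% and 28.04% of the summed TPM, and the major one in NPC with 55.6% and 61.3% and in NC with 70.9% and 72.5%. Kdm6a was called lower in NC against mESC with quantile normalization (adjusted p = 0.0354).

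The KDM4 genes, which remove methyl groups from H3K9 and H3K36, did not move together. Kdm4a had 82.3 and 61.5 TPM in mESC, 119 and 132 TPM in NPC and 191 and 189.5 TPM in NC. It rose in both steps (NC against mESC, log2 fold change of 1.40, SE 0.17, adjusted p = 0.000653). Kdm4b had 30.4 and 21.8 TPM in mESC, 62.6 and 84.4 TPM in NPC and 116 and 100.1 TPM in NC. It rose in the first (log2 fold change of 1.46, SE 0.22, adjusted p = 0.00297). Kdm4c, in contrast, had 42.5 and 37.5 TPM in mESC, 18.5 and 22.3 TPM in NPC and 23.7 and 28.1 TPM in NC. This was a fall in the first step (log2 fold change of -0.94, SE 0.18, adjusted p = 0.00767), and its share of the summed TPM of the 3 was 9.25% and 9.35% in NPC, against 27.4% and 31.02% in mESC. Kdm7a, a PHF8 relative that acts on H3K9 and H3K27, had 9.35 and 6.80 TPM in mESC, 30.4 and 32.3 TPM in NPC and 25.2 and 27.8 TPM in NC. Its rise lay in the first step (log2 fold change of 1.85, SE 0.20, adjusted p = 0.000833). The test in NPC against mESC was no longer passed by Kdm4a and Kdm4c without NPC replicate 1 (adjusted p 0.0561 to 0.0720) and Kdm4a without NPC replicate 2 (adjusted p = 0.0937). Fits that left out 1 library ended calls in NC against NPC, those of Kdm4a without NPC replicate 1 or 2 or NC replicate 1 or 2 (adjusted p 0.123 to 0.251). Calls in NC against mESC were lost when 1 library was left out, for Kdm4c without mESC replicate 1 or 2 or NPC replicate 1 or 2 or NC replicate 1 (adjusted p 0.0519 to 0.102). Under at least 1 other scaling, filter, unit or fit the test was not passed by Kdm4a in NC against NPC (adjusted p 0.0505 to 0.1004).

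Of the H3K4 demethylases, 2 were higher and 1 was lower in NPC than in mESC, beside 26% and 14% of all genes. Kdm5b had 151 and 169 TPM in mESC, 86.6 and 108 TPM in NPC and 131 and 141 TPM in NC. It was lower in NPC than in mESC (log2 fold change of -0.71, SE 0.16, adjusted p = 0.012), while NC and mESC did not differ past the threshold (log2 fold change of -0.23, SE 0.16, adjusted p = 0.247). Kdm5a had 53.1 and 48.05 TPM in NPC, against 33.8 and 33.1 TPM in mESC (log2 fold change of 0.58, SE 0.16, adjusted p = 0.0263). X-linked Kdm5c lay between 78.3 and 92.8 TPM in all 6 libraries. Kdm1a, or LSD1, the flavin-dependent H3K4 demethylase of CoREST, had 135 and 135 TPM in mESC, 126 and 134 TPM in NPC and 170.5 and 154 TPM in NC. It was not called. Its relative Kdm1b had 12.3 and 11.7 TPM in mESC, 19.4 and 22.8 TPM in NPC and 24.96 and 26.1 TPM in NC. It was higher in NPC than in mESC (log2 fold change of 0.76, SE 0.18, adjusted p = 0.0157). It overlaps Tpmt on the opposite strand, which had 1.87 times its TPM. Kdm1b also shares a near-identical stretch of 505 bases with Dek (65.6 to 239.3 TPM), so its values are uncertain. The H3K9 demethylase Kdm3a was lower in NC, with 63.5 and 69.3 TPM, than in NPC, with 99.2 and 118 TPM (log2 fold change of -0.70, SE 0.16, adjusted p = 0.0232), while Kdm3b lay between 54.4 and 73.3 TPM. The H3K36 demethylase Kdm2a had 58.8 and 70.3 TPM in NC and 41.6 and 46.5 TPM in mESC (log2 fold change of 0.54, SE 0.15, adjusted p = 0.0208). Kdm2b, which brings a Polycomb complex to CpG islands, lay between 73.1 and 94.5 TPM and was not called. In NPC against mESC the call did not hold for Kdm5a without mESC replicate 1 (adjusted p = 0.0688), Kdm1b, Kdm5a and Kdm5b without mESC replicate 2 or NPC replicate 1 (adjusted p 0.0565 to 0.173) and Kdm1b and Kdm5a without NPC replicate 2 (adjusted p 0.110 to 0.140). With 1 library fewer, NC against NPC lost the calls of Kdm3a without NPC replicate 1 or 2 or NC replicate 1 or 2 (adjusted p 0.0661 to 0.169). The test in NC against mESC was no longer passed by Kdm2a and Kdm3a without mESC replicate 1 (adjusted p 0.0689 to 0.0759), Kdm2a without NPC replicate 1 or 2 or NC replicate 2 (adjusted p 0.0574 to 0.0736) and Kdm3a without NC replicate 1 (adjusted p = 0.0760). At least 1 other scaling, filter, unit or fit did not call Kdm1b and Kdm5a in NPC against mESC (adjusted p 0.0537 to 0.117), Kdm3a in NC against NPC (adjusted p 0.0504 to 0.0582) and Kdm2a in NC against mESC (adjusted p 0.0573 to 0.249). Kdm2a was called higher in NPC against mESC with a mean TPM of at least 5 and a fit of only those 2 groups, and without NC replicate 1 and without NC replicate 2 (adjusted p 0.0391 to 0.0492). Kdm5a was called higher in NC against mESC without NC replicate 1 (adjusted p = 0.0395). Kdm5b was called lower in NC against mESC with FPKM and median-of-ratios scaling (adjusted p 0.0274 to 0.0307).

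**Figure D3:**
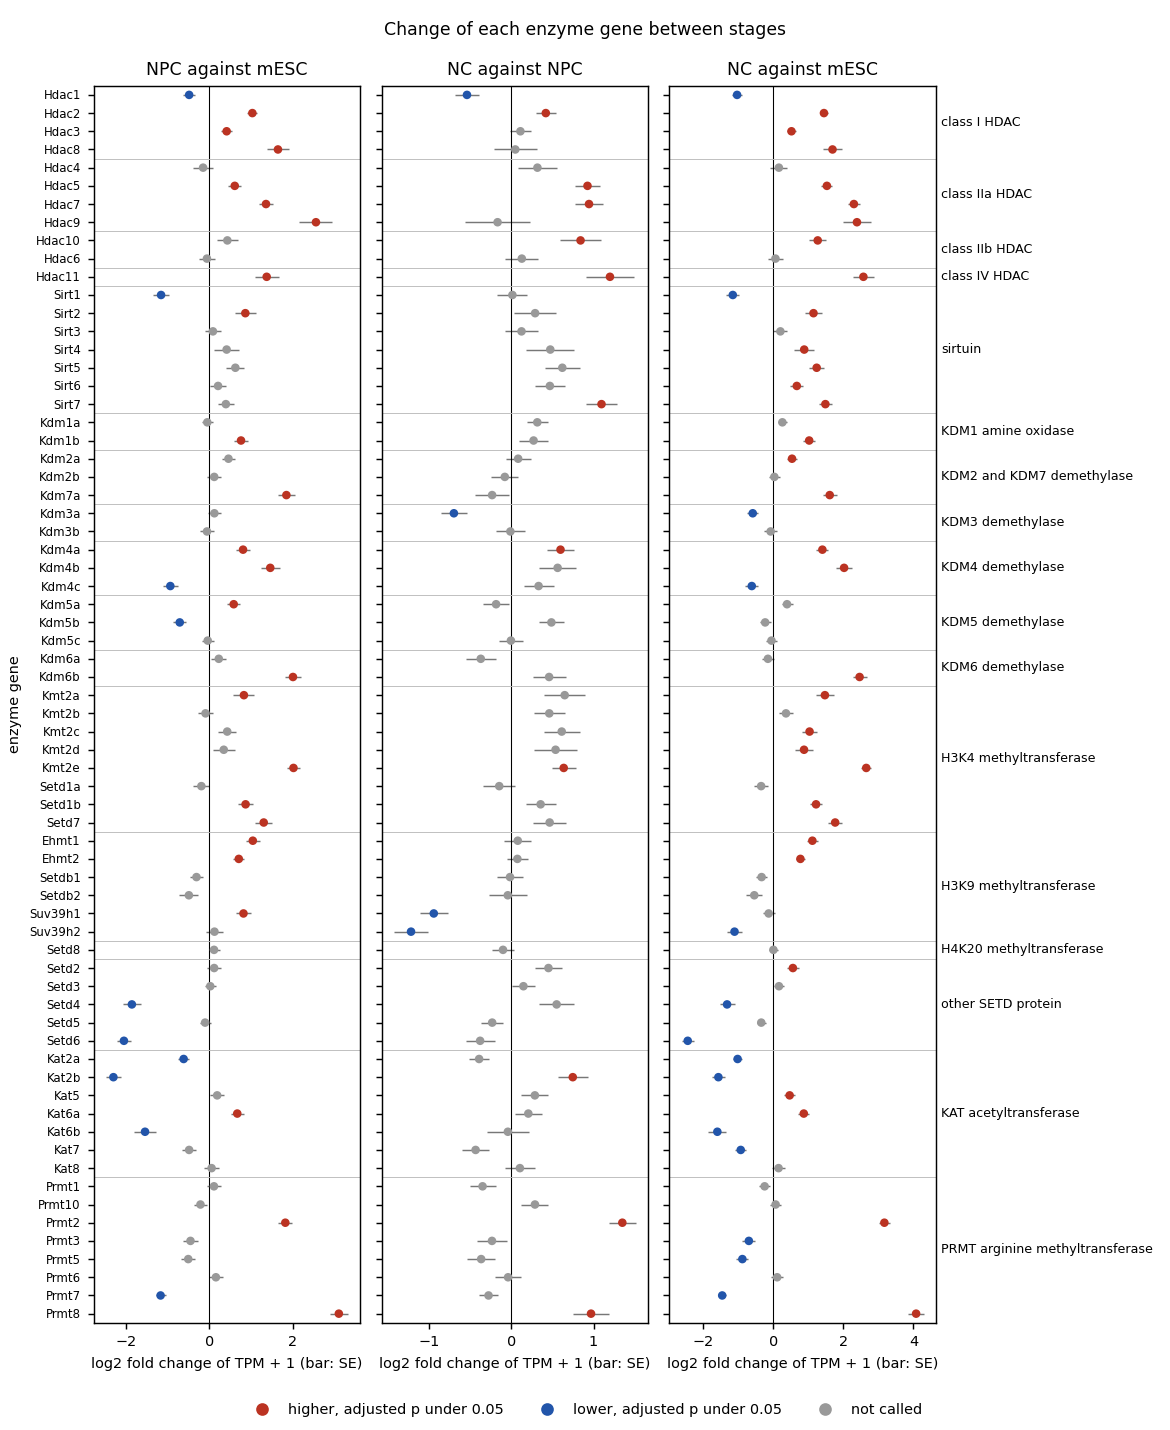
Log2 fold change of TPM + 1 for each of the 68 tested enzyme genes in each of the 3 comparisons (panels), with bars of 1 SE from limma and the horizontal scale of each panel set on its own. Red points were called higher, blue points lower and grey points not called at an adjusted p of 0.05. Called points number 34 in NPC against mESC, 15 in NC against NPC and 46 in NC against mESC.

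Of 8 H3K4 methyltransferases, 6 were higher in NC than in mESC and 0 were lower in TPM, beside 37.8% and 22.1% of all genes. Kmt2e (ENSMUSG00000029004.14, chr5:23434441-23504235), or MLL5, a reader of H3K4 methylation for which enzyme activity has not been settled, had 14.6 and 12.7 TPM in mESC, 57.9 and 58.8 TPM in NPC and 93.2 and 89.5 TPM in NC. It was apart in every stage and rose in both steps (log2 fold change of 2.02, SE 0.14, adjusted p = 0.000169 in NPC against mESC; log2 fold change of 2.65, SE 0.14, adjusted p = 3.57e-05 in NC against mESC). Setd7, a monomethyltransferase with many targets besides histones, had 11.02 and 10.7 TPM in mESC, 28.7 and 27.9 TPM in NPC and 33.6 and 46.4 TPM in NC, with most of the rise in the first step (log2 fold change of 1.30, SE 0.20, adjusted p = 0.00307). Kmt2a, or MLL1, had 28.3 and 20.5 TPM in mESC, 44.3 and 42.9 TPM in NPC and 55.2 and 85.9 TPM in NC. It was higher in NC than in mESC (log2 fold change of 1.48, SE 0.25, adjusted p = 0.00284), while its partner gene Kmt2b was not called. Kmt2b had 69.4 and 56.5 TPM in mESC, 61.2 and 55.9 TPM in NPC and 69.9 and 93.8 TPM in NC. The share of Kmt2a in that pair was 28.99% and 26.6% in the mESC libraries, 41.95% and 43.4% in those of NPC and 44.1% and 47.8% in those of NC. The enhancer enzymes Kmt2c and Kmt2d both rose. Kmt2c had 47.5 and 64.8 TPM in NC and 30.8 and 22.8 TPM in mESC (log2 fold change of 1.04, SE 0.22, adjusted p = 0.00647). Kmt2d had 37.6 and 67.2 TPM in NC and 26.6 and 27.1 TPM in mESC (log2 fold change of 0.88, SE 0.27, adjusted p = 0.027). Setd1b, of the SET1 complex, had 11.03 and 13.6 TPM in mESC, 22.4 and 23.9 TPM in NPC and 28.98 and 30.95 TPM in NC. The first step was called (log2 fold change of 0.87, SE 0.18, adjusted p = 0.0102). Setd1a, the other catalytic gene of that complex, had 78.03 and 72.5 TPM in mESC, 69.7 and 61.7 TPM in NPC and 49.6 and 70.4 TPM in NC. It was not called in TPM with all 6 libraries. In NC, replicate 2 was above replicate 1 for each of the 4 genes Kmt2a to Kmt2d. Kmt2e overlaps Srpk2 by 972 bases on the opposite strand. Fits that left out 1 library ended calls in NPC against mESC, those of Kmt2a without mESC replicate 1 or 2 (adjusted p 0.0691 to 0.215) and Kmt2a and Setd1b without NPC replicate 1 or 2 (adjusted p 0.0660 to 0.168). Calls in NC against NPC were lost when 1 library was left out, for Kmt2e without NPC replicate 1 or 2 or NC replicate 1 or 2 (adjusted p 0.0614 to 0.167). In NC against mESC the call did not hold for Kmt2d without mESC replicate 1 or 2 or NPC replicate 1 or 2 or NC replicate 2 (adjusted p 0.0539 to 0.130). Another scaling, filter, unit or fit ended the calls of Kmt2a and Setd1b in NPC against mESC (adjusted p 0.0559 to 0.115) and Kmt2d in NC against mESC (adjusted p 0.0588 to 0.152). Kmt2d was called higher in NC against NPC without NC replicate 1 (adjusted p = 0.0260). Setd1a was called lower in NC against mESC with FPKM, median-of-ratios scaling and quantile normalization, and without NC replicate 2 (adjusted p 0.02004 to 0.0434).

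Among the H3K9 methyltransferases, Ehmt1 and Ehmt2, the GLP and G9a enzymes that write H3K9 dimethylation as a dimer, were both higher in NPC than in mESC. Ehmt2 had 161 and 142 TPM in mESC, 245 and 248 TPM in NPC and 269 and 251 TPM in NC (log2 fold change of 0.70, SE 0.13, adjusted p = 0.0062 in NPC against mESC). Ehmt1 had 55.6 and 59.5 TPM in mESC, 121 and 117 TPM in NPC and 110.2 and 144 TPM in NC (log2 fold change of 1.04, SE 0.16, adjusted p = 0.00329). Both stayed above mESC in NC with no further call. Suv39h1, which writes H3K9 trimethylation at pericentric heterochromatin, peaked in NPC, with 56.96 and 48.8 TPM in mESC, 96.9 and 90.4 TPM in NPC and 42.6 and 54.6 TPM in NC. It was called higher in NPC than in mESC (log2 fold change of 0.82, SE 0.17, adjusted p = 0.0105) and lower in NC than in NPC (log2 fold change of -0.94, SE 0.17, adjusted p = 0.0118), and NC and mESC overlapped. Suv39h2 had 23.6 and 22.8 TPM in mESC, 28.1 and 22.7 TPM in NPC and 11.8 and 8.90 TPM in NC. It was lower in NC than in NPC (log2 fold change of -1.22, SE 0.21, adjusted p = 0.0103). These falls accompanied those of the dividing cell markers, 7 of 7 lower in NC than in NPC, and the part of cell division in them was not tested. Setdb1, which writes H3K9 trimethylation at retroelements with TRIM28, had 67.7 and 78.2 TPM in mESC, 59.5 and 57.3 TPM in NPC and 51.97 and 64.1 TPM in NC, and Setdb2 had 14.1 and 12.8 TPM in mESC, 9.95 and 8.61 TPM in NPC and 7.71 and 10.4 TPM in NC. Neither was called on the TPM scale. With 1 library fewer, NPC against mESC lost the calls of Suv39h1 without mESC replicate 2 (adjusted p = 0.0664) and Ehmt2 and Suv39h1 without NPC replicate 1 or 2 (adjusted p 0.0576 to 0.0860). The test in NC against NPC was no longer passed by Suv39h1 and Suv39h2 without NPC replicate 1 or 2 (adjusted p 0.0590 to 0.112). Setdb1 was called lower in NPC against mESC with median-of-ratios scaling (adjusted p = 0.0432). Setdb1 was called lower in NC against mESC with FPKM, median-of-ratios scaling and quantile normalization (adjusted p 0.0161 to 0.0268). Setdb2 was called lower in NPC against mESC with median-of-ratios scaling and quantile normalization (adjusted p 0.0290 to 0.0419). Setdb2 was called lower in NC against mESC with FPKM, median-of-ratios scaling and quantile normalization (adjusted p 0.00727 to 0.0169). Suv39h1 was called lower in NC against mESC with median-of-ratios scaling (adjusted p = 0.0494).

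The other SET domain proteins held the largest fall of all enzymes between NC and mESC. Setd6 (ENSMUSG00000031671.9, chr8:95715915-95719010), a methyltransferase of the NF-kappaB subunit RelA, had 143 and 114 TPM in mESC, 31.4 and 28.5 TPM in NPC and 20.96 and 24.7 TPM in NC. It fell in the first step (log2 fold change of -2.06, SE 0.18, adjusted p = 0.000326) and was lower in NC than in mESC (log2 fold change of -2.44, SE 0.18, adjusted p = 9.11e-05). Setd4 had 30.6 and 28.8 TPM in mESC, 7.54 and 7.31 TPM in NPC and 9.75 and 13.2 TPM in NC. This was also a fall in the first step (log2 fold change of -1.86, SE 0.21, adjusted p = 0.000953). Setd5 was the most abundant of the group, with 231 and 216 TPM in mESC, 207 and 208 TPM in NPC and 165 and 189 TPM in NC, and was not called in TPM with all 6 libraries. Setd2, the enzyme of H3K36 trimethylation, had 72.3 and 79.7 TPM in NC and 45.1 and 57.8 TPM in mESC (log2 fold change of 0.56, SE 0.17, adjusted p = 0.0246). Setd3, an actin histidine methyltransferase, lay between 60.02 and 72.4 TPM and is uncertain because of 2 near-identical copies, Gm14026 and Gm7114. Setd8, the H4K20 monomethyltransferase also called Kmt5a, lay between 104 and 124 TPM in the 6 libraries, with a log2 fold change of 0.01 in NC against mESC. Fits that left out 1 library ended calls in NC against mESC, those of Setd2 without mESC replicate 1 or NPC replicate 1 or 2 or NC replicate 1 or 2 (adjusted p 0.0518 to 0.1003). Under at least 1 other scaling, filter, unit or fit the test was not passed by Setd2 in NC against mESC (adjusted p 0.0590 to 0.279). Setd5 was called lower in NC against mESC with FPKM and median-of-ratios scaling, and without NC replicate 2 (adjusted p 0.00563 to 0.0406).

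The arginine methyltransferases spanned the whole range of responses. Prmt8 (ENSMUSG00000030350.8, chr6:127689011-127769472), a membrane-bound relative of PRMT1 known from brain, had 5.10 and 6.05 TPM in mESC, 45.5 and 67.7 TPM in NPC and 115 and 104 TPM in NC. Its lowest NPC library was above both mESC libraries and its lowest NC library above both NPC libraries. On the log2(TPM + 1) scale Prmt8 had the largest rise of any tested enzyme in NPC against mESC (log2 fold change of 3.11, SE 0.22, limma adjusted p = 0.000165). The same held in NC against mESC (log2 fold change of 4.08, SE 0.22, limma adjusted p = 3.57e-05). In mean TPM, Hdac9 rose more than Prmt8 in NPC against mESC, by 15.1-fold against 10.2-fold. Prmt2 (ENSMUSG00000020230.13, chr10:76207222-76237865), which carries an SH3 domain, had 11.5 and 11.2 TPM in mESC, 38.99 and 46.7 TPM in NPC and 119 and 102 TPM in NC. It rose in both steps (log2 fold change of 1.82, SE 0.17, adjusted p = 0.000406 in NPC against mESC; log2 fold change of 1.35, SE 0.17, adjusted p = 0.00435 in NC against NPC). Prmt1, which makes most of the asymmetric dimethylarginine of cells, was the most abundant of all 70 enzymes, with 632 and 777 TPM in mESC, 802 and 709.8 TPM in NPC and 576 and 608 TPM in NC, and was not called in TPM. Prmt8 thus made up 0.801% and 0.773% of the summed TPM of Prmt1 and Prmt8 in the mESC libraries, 5.37% and 8.71% in those of NPC and 16.7% and 14.6% in those of NC. Calls in NC against NPC were lost when 1 library was left out, for Prmt8 without mESC replicate 1 or 2 or NC replicate 1 or 2 (adjusted p 0.0588 to 0.1001) and Prmt2 and Prmt8 without NPC replicate 1 (adjusted p 0.0594 to 0.163). At least 1 other scaling, filter, unit or fit did not call Prmt8 in NC against NPC (adjusted p 0.0561 to 0.0731). Prmt1 was called lower in NC against mESC with FPKM (adjusted p = 0.0397).

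Prmt7, the monomethylating enzyme, was the largest fall of the family, with 179 and 178 TPM in mESC, 79.1 and 78.03 TPM in NPC and 63.3 and 66.03 TPM in NC (log2 fold change of -1.18, SE 0.12, adjusted p = 0.000634 in NPC against mESC). Prmt5, which makes symmetric dimethylarginine, had 144 and 193 TPM in mESC, 123 and 111 TPM in NPC and 89.4 and 91.3 TPM in NC. It was lower in NC than in mESC (log2 fold change of -0.88, SE 0.17, adjusted p = 0.00466). Prmt3, which methylates a ribosomal protein, had 32.4 and 43.8 TPM in NC and 63.4 and 59.6 TPM in mESC (log2 fold change of -0.69, SE 0.19, adjusted p = 0.0174). Prmt6, an H3 arginine methyltransferase, lay between 25.3 and 31.7 TPM, and Prmt10, the gene now named Prmt9, between 23.5 and 32.1 TPM, and neither was called. In NC against mESC the call did not hold for Prmt3 without mESC replicate 1 or 2 or NC replicate 1 (adjusted p 0.0596 to 0.0859). Prmt3 was called lower in NPC against mESC with FPKM, median-of-ratios scaling, quantile normalization and a fit of only those 2 groups, and without NC replicate 1 (adjusted p 0.0222 to 0.0497). Prmt5 was called lower in NPC against mESC with a mean TPM of at least 5, FPKM and median-of-ratios scaling, and without mESC replicate 1 (adjusted p 0.0196 to 0.0466). Prmt7 was called lower in NC against NPC with FPKM and quantile normalization (adjusted p 0.0347 to 0.0389).

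**Figure D4:**
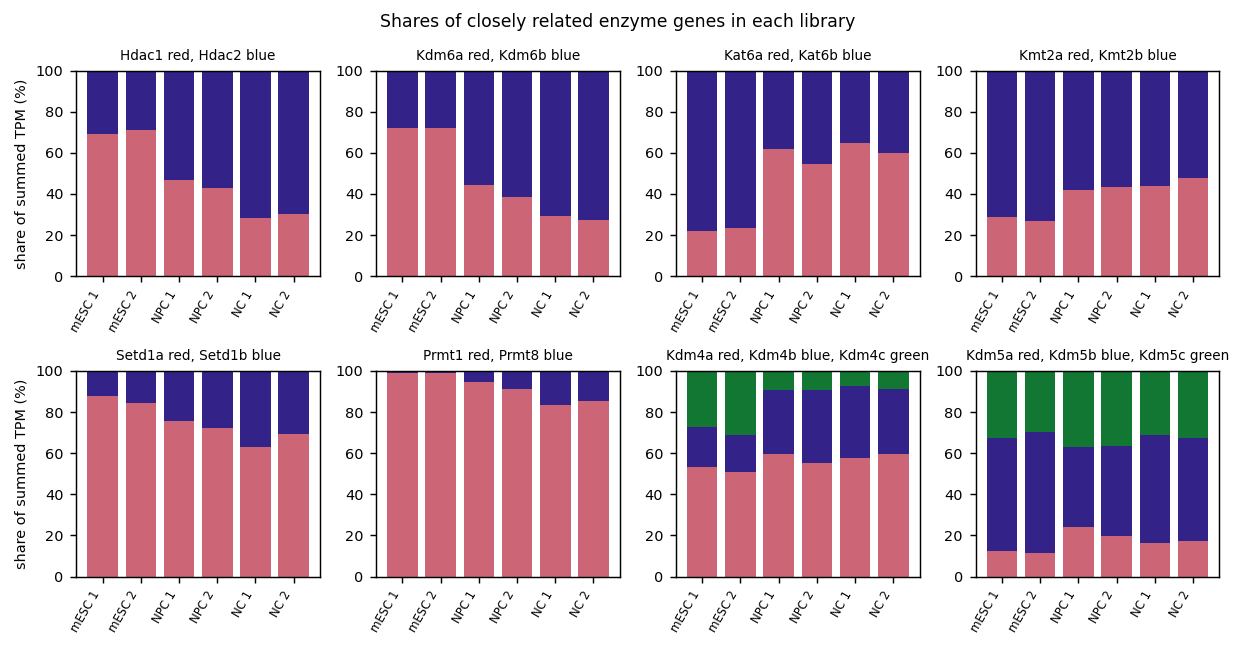
Share of each gene in the summed TPM of its closely related group (percent, stacked bars from 0 to 100), in each library. The share of Hdac2 is 71.8% and 69.6% in NC, against 31.04% and 28.9% in mESC. The share of Kdm6b is 70.9% and 72.5% in NC, against 27.7% and 28.04% in mESC, and that of Kdm4c is 7.17% and 8.85% in NC, against 27.4% and 31.02% in mESC.

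Counted by step, 8 enzymes rose in both: Hdac2, Hdac5, Hdac7, Hdac11, Kdm4a, Kmt2e, Prmt2 and Prmt8. Another 15 rose in the first step and were not called in the second, and 8 fell in the first step and were not called in the second. Hdac1 fell in both, Suv39h1 rose and then fell, and Kat2b fell and then rose. Hdac10 and Sirt7 rose, and Kdm3a and Suv39h2 fell, in the second step alone. The remaining 30 tested enzymes were called in neither step. Both steps use the NPC libraries, and calls lost or gained between them are no test of a difference between the steps. Of all tested genes 26% rose and 14% fell in the first step, and 15.2% and 10.1% in the second. Shares of all genes with each pattern over both steps were not counted. The second-step calls were fragile. Of these, 7 of 15 held under every other scaling, filter, unit and fit, and each was lost in at least 1 fit that left out a library.

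Related genes that the name rule leaves out were counted in the same fit, where 59.9% of all tested genes were called in NC against mESC, 37.8% higher and 22.1% lower. Of 19 other methyltransferases tested, 9 (47.4%) were higher and 3 (15.8%) lower in NC than in mESC. Whsc1, the H3K36 dimethyltransferase NSD2, had 163 and 177 TPM in NC and 38.8 and 39.7 TPM in mESC (log2 fold change 2.09). Ezh2, the H3K27 methyltransferase of Polycomb, had 88.2 and 102 TPM in NC and 151 and 149 TPM in mESC (log2 fold change -0.66). Of 12 other acetyltransferases, 5 (41.7%) were higher and 2 (16.7%) lower. Hat1, which acetylates newly made histone H4, fell in both steps and had 30.8 and 33.1 TPM in NC and 224 and 272 TPM in mESC (log2 fold change -2.91). Of 9 other demethylases, 2 (22.2%) were higher and 3 (33.3%) lower, with Phf2, an H3K9 demethylase, at 61.5 and 64.3 TPM in NC and 8.11 and 5.75 TPM in mESC (log2 fold change 3.03).

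The partners of the enzymes moved in both directions too. Of 35 subunits of HDAC and LSD1 corepressor complexes, 15 (42.9%) were higher and 6 (17.1%) lower in NC than in mESC, beside 37.8% and 22.1% of all genes. The largest rise was that of Phf21b, at 228 and 257 TPM in NC and 15.3 and 12.4 TPM in mESC. Chd3, a remodeller of NuRD, had 172 and 232 TPM in NC and 20.5 and 20.8 TPM in mESC. Rest, the repressor of neuronal genes that recruits HDACs through SIN3A and CoREST, had 12.6 and 16.6 TPM in NC and 84.5 and 111 TPM in mESC, a fall that lay in the first step (log2 fold change -2.25 in NPC against mESC). Of 14 rows for 13 COMPASS symbols, the shared partners of the H3K4 methyltransferases, 5 (35.7%) were higher and 5 lower. The core subunits Ash2l, Dpy30, Wdr5 and Rbbp5 were all among the lower ones, with log2 fold changes of -1.37, -1.56, -1.45 and -0.48. Among 34 subunits of acetyltransferase complexes 12 (35.3%) were higher and 8 (23.5%) lower, and among 14 partners of H3K9 enzymes and PRMTs 4 (28.6%) were higher and 5 (35.7%) lower. Among these the KRAB cofactor Trim28 had 424 and 472 TPM in NC and 1028 and 1323 TPM in mESC. Of 14 genes that supply or clear cofactors, 4 (28.6%) were higher and 5 (35.7%) lower. Ahcy, which clears the product of methyl transfer, had 37.5 and 44.9 TPM in NC and 154 and 194 TPM in mESC (log2 fold change -2.05). Nampt, which makes NAD for sirtuins, had 27.8 and 29.6 TPM in NC and 78.9 and 69.5 TPM in mESC (log2 fold change -1.34).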

How the data were processed

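RNA of E14TG2a cells was sequenced in 6 libraries on an Ion Proton. Per the labels' protocols the RNA was enriched for mRNA, depleted of rRNA and made into libraries with an Ion Total RNA-Seq kit. The submitters' processing notes name STAR 2.7.9a with the build mm10, StringTie 2.1.5 and cutadapt 3.4, besides DESeq2, FastQC and R 4.0.3, with no settings. Per the file headers, the deposited tables are StringTie gene abundances with coverage, FPKM and TPM per gene. The authors' coverage is a mean read depth, their FPKM is scaled to length and library, and their TPM is FPKM rescaled to 1 sum per library. Strand setting and annotation release: not given in the sources used here. No read counts are in the tables, so no counting interval can be given. Precision comes from the differences between the 2 libraries of a stage, pooled over the 3 stages and adjusted by limma with the spread of all genes. Each gene thus has the same SE in the 3 comparisons, and that SE is not the spread of the 2 compared stages alone. The labels call the 2 libraries of a stage biological replicates.

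Repeated lines of a gene ID, 2 to 9 per table, were summed. The genes that reached a TPM of 1 in 2 or more of the 6 libraries were tested with limma 3.58.1 in R 4.3.3 (lmFit, eBayes with a trend) on log2(TPM + 1), all 6 libraries, no replicate block, 3 residual degrees of freedom, two-sided, with Benjamini-Hochberg adjustment over all 20232 genes and a threshold of 0.05. Fold changes are on that scale, which understates low genes. The fit was also run on simulated data with independent noise and few changed genes. That setting differs from these data, so the run is no support for the calls given here. Shares of related genes are given as descriptions and were not tested. Near-identical copies were searched with blastn 2.17.0 in GENCODE vM21 transcripts (at least 95% identity over 300 bases). Of the 70 members, 56 had a promoter window in the RefSeq table and 50 of the tested ones had one within 1000 bases of the start in the deposited tables; that limit and the set of genes compared were chosen after a first look at the windows.

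Enzymes given in full were the 12 largest changes past the threshold per comparison, the most abundant member of each family and all members of related pairs or groups; others complete their family. The members, families and lists were chosen with earlier results of these data known. Older symbols of the tables were put into the lists after the files were read.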

Additional observations from a re-analysis of the deposited data

How the results depend on the processing

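Results were recomputed with pseudocounts of 0.1 and 0.5, no filter beyond TPM above 0, a mean TPM of at least 5, FPKM, median-of-ratios scaling, quantile normalization, eBayes without a trend, a fit of only the 2 groups compared, a replicate block, and without each library. Over all tested enzymes and comparisons, 2873 values kept their direction and side of the threshold, 219 lost the call and 53 gained one. No called value turned its sign; 50 uncalled results had 122 values of the other sign, still uncalled and at most 0.41 in absolute log2 fold change. In NC against NPC, where 11 enzymes were higher and 4 lower, 6 and 2 were called with no filter, 7 and 7 with FPKM and 7 higher in a fit of only those 2 groups, while 7 were lower with quantile normalization and 2 without a trend. All genes called there numbered 5123, and 3166 with no filter. With 1 library left out, enzymes higher ranged from 12 to 24 in NPC against mESC and from 0 to 9 in NC against NPC, and enzymes lower from 6 to 12 and from 0 to 4. All genes called ranged from 4032 to 8484 in NPC against mESC and from 309 to 4156 in NC against NPC. Of the calls, 17 of 34, 0 of 15 and 36 of 46 held without any 1 library, in the order NPC against mESC, NC against NPC, NC against mESC. The labels do not say whether a replicate number marks a shared culture. Over the tested genes the deviations of same-numbered libraries correlated by 0.0455 (NPC and mESC), -0.0703 (NC and NPC) and -0.0819 (NC and mESC). These values show no strong shared shift, but they cannot tell whether the libraries were paired. With the replicate block 21 enzymes were higher and 9 lower in NPC against mESC, 8 and 3 in NC against NPC, and 31 and 14 in NC against mESC. The cause of these shifts was not tested. Depth could be given only as aligned bases, and low genes such as Hdac9 in mESC are the least precise.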
